A study of Mus musculus with 4 samples.

Results

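Expression of 10 genes of fibroblast growth factor (FGF) signaling, found by their symbols in the gene table, was examined in ingWAT, the inguinal white fat depot that lies under the skin. They were 6 ligands (*Fgf1*, *Fgf2*, *Fgf7*, *Fgf9*, *Fgf10* and *Fgf21*), 3 receptors (*Fgfr1*, *Fgfr2* and *Fgfr3*) and *Klb*, which encodes the co-receptor β-Klotho, and all 10 were among the 19030 genes listed. Ctrl mice were *Oct3* fl/fl, with loxP sites flanking part of the gene of the norepinephrine transporter Oct3, and cKO mice carried the same alleles together with Adiponectin-Cre, which removes that part in adipocytes and not in the other cells of the depot. All libraries came from C57BL/6 mice that were 3 months old and were kept at 4°C, and the Methods describe the cold-challenged animals as male. They also describe a cold challenge that lasted weeks, with a step at a milder temperature before 4°C. Each genotype was represented by 2 libraries, a group kept warm is not part of the table, and the number of mice in a library is not given in the sources used here.

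FGFs are secreted or locally released proteins that bind receptor tyrosine kinases on the cell surface, usually together with heparan sulfate, and the receptors then act through the adaptor Frs2 and the Ras and Erk kinases. Most of the ligands act near their source. Fgf21 is a circulating member that binds heparan sulfate weakly and needs β-Klotho beside a receptor, in fat mainly Fgfr1, and it is known in adipose tissue for its part in thermogenic gene expression and glucose uptake. Fgf7 and Fgf10 are made largely by mesenchymal cells and act on the splice form IIIb of Fgfr2, whereas Fgf1 binds all receptor forms.

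In cKO ingWAT 3 of the 10 genes were lower, namely *Fgf2*, *Fgf7* and *Fgfr1*, and 0 were higher. *Fgf2* fell to 0.345 and *Fgf7* to 0.437 of the mean FPKM of Ctrl, and *Fgfr1*, the member with the highest level, fell to 0.743. *Fgf10* and *Fgf21* did not pass the test, although the cKO libraries of *Fgf10* both lay below and those of *Fgf21* both above the Ctrl libraries. *Klb*, *Fgf1*, *Fgfr2* and *Fgfr3* were not called either, and *Fgf9* was too low to be tested. FPKM is the number of fragments per length of transcript and per depth of the library. For each of the 12658 genes whose FPKM averaged 1 or more over the 4 libraries, log2(FPKM + 1) was tested between the genotypes with limma, and a gene is called where its Benjamini-Hochberg adjusted p is under 0.05. Each log2 fold change is the cKO mean minus the Ctrl mean on this scale, which understates the change of low genes. Of all genes tested 25.8% were called, 13.8% lower and 12.0% higher in cKO, so that 3 calls among the 9 members tested is a share near that of all genes. At an unadjusted p under 0.05 in limma there were 5 of the 9, with *Fgf10* and *Fgf21* beside the 3 called, and 38.5% of all genes tested. In 6 of the 9 members tested the libraries of the genotypes did not overlap, which is the case in 66.5% of all genes tested. *Fgf21*, which is in both counts, reached the mean FPKM of 1 only through its cKO values, so it is no support for a difference. Among the 9 the middle log2 fold change was -0.12, against -0.006 over all genes tested.

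The depth of the libraries, estimated from the steps between low FPKM values, was between 17600000 and 18700000 reads. *Slc22a3*, the gene of Oct3, had FPKM values of 16.95 and 17.68 in the Ctrl libraries and of 9.07 and 9.5 in the cKO libraries. Of 8 white adipocyte markers all were detected, with a summed FPKM of 32100 and 30600 in Ctrl and of 24300 and 24400 in cKO. The lists of 13 skeletal muscle genes and of 6 Schwann cell and nerve genes differed more strongly between the genotypes. *Th*, the sympathetic nerve marker of the nerve list, was not among the genes listed, so the sums of that list cover 5 genes. The summed FPKM of the muscle list was 2390 and 1610 in Ctrl and 29.4 and 27.8 in cKO, and that of the nerve list 153 and 136 in Ctrl and 46.6 and 56.6 in cKO. In such bulk libraries, fewer cells of a type and less RNA per cell cannot be told apart.

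Promoter sequences from the RefSeq table for GRCm38.p6 were at hand for 8 of the 10 members. The stretches before the start of *Fgf21*, *Fgf7* and *Klb* are shown, since these are the ligand with higher values in cKO, a ligand that fell and the co-receptor of Fgf21. Capitals mark the motifs TGATGNAA, bound by Atf4 together with C/EBP proteins, TGACG, the core of the cAMP response element bound by Creb, and TATAAA, the TATA box, on either strand. The *Fgf21* stretch lies at chr7:45615491-45615740 on the minus strand, the *Fgf7* stretch at chr2:126034408-126034657 and the *Klb* stretch at chr5:65348161-65348313, both on the plus strand.
*Fgf21*: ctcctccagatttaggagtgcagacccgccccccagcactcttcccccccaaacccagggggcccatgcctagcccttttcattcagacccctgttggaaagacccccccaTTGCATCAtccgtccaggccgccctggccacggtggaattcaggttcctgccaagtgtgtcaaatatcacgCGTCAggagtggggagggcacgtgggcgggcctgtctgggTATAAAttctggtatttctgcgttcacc
*Fgf7*: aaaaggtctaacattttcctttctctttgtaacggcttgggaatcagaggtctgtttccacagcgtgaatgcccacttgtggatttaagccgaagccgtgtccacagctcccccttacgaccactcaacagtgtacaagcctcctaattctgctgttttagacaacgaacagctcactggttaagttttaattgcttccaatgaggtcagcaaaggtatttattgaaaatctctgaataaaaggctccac
*Klb*: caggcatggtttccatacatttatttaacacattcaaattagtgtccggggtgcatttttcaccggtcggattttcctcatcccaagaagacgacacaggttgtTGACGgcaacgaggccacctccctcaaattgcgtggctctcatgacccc

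The stretch of *Fgf21* held all 3 motifs, that of *Klb* held TGACG, and that of *Fgf7* held none of them. Among all 32851 windows of 300 bases in the table, 3.97% held TGATGNAA, 20.8% held TGACG and 13.6% held TATAAA. Of the 8 members with a window, 1 held TGATGNAA, 4 held TGACG (*Fgf2*, *Fgf9*, *Fgf21* and *Klb*) and 0 held the full element TGACGTCA, which contains TGACG and is found in 1.79% of all windows. These are matches of letters and not measured binding.

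**Figure D1:**
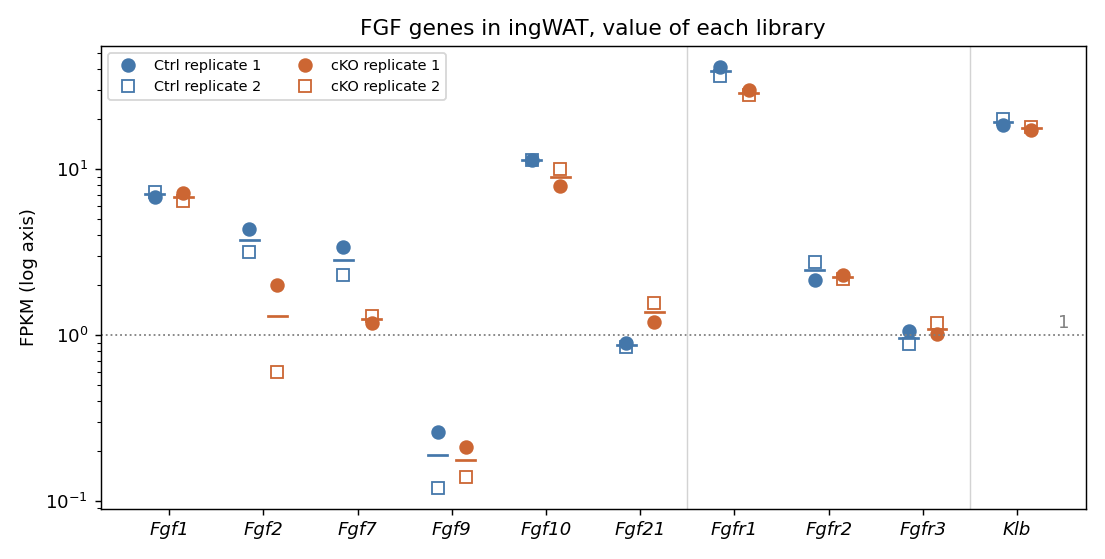
FPKM (log axis) of the 10 genes in each of the 4 libraries, with Ctrl in blue and cKO in orange, filled circles for replicate 1 and open squares for replicate 2, and short lines for the mean of the 2 libraries. The dotted line marks an FPKM of 1. The cKO libraries of *Fgf2*, *Fgf7* and *Fgfr1* lie below both Ctrl libraries, and those of *Fgf2* lie far apart.

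Among the ligands, *Fgf2*, which encodes basic FGF, a mitogen of mesenchymal and endothelial cells, had FPKM values of 4.35 and 3.18 in the Ctrl libraries and of 2 and 0.6 in the cKO libraries. Both cKO libraries were lower than both Ctrl libraries, but they also differed from each other more than the Ctrl libraries did. This gave a log2 fold change of -1.11 with a standard error of 0.277 and an adjusted p = 0.0257 in limma with Benjamini-Hochberg adjustment. At the estimated depth the values stand for about 482.9 and 346.4 reads in Ctrl and about 208.9 and 63.2 reads in cKO, and the counting error of the last is about 7.9 reads, so the gap between the cKO libraries is wider than counting gives. Without cKO replicate 2, the library with the lowest value, the log2 fold change was -0.66 and the call was lost (adjusted p = 0.0559 in limma). It was also lost without Ctrl replicate 1 (-0.93, adjusted p = 0.215 in limma) and without Ctrl replicate 2 (-1.29, adjusted p = 0.1 in limma). *Fgf2* lies at chr3:37348477-37410106 and shares 640 of its 6782 annotated exonic bases with *Nudt6*, a gene on the opposite strand. The library protocol names no step that marks the strand, so reads of these bases cannot be told apart. *Nudt6* itself had FPKM values of 14.3 and 13.92 in Ctrl and of 14.09 and 15.79 in cKO and was not called (log2 fold change 0.08). *Fgf2* also shares 255 exonic bases with *Gm43439*. Other members that share exonic bases with another gene are *Fgfr3* (998 of 7158), *Fgfr2* (314 of 10328), *Fgfr1* (164 of 9875) and *Fgf10* (123 of 4601).

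*Fgf7* encodes keratinocyte growth factor, which stromal cells release and which acts on cells with the IIIb form of Fgfr2. Its FPKM was 3.37 and 2.3 in the Ctrl libraries and 1.18 and 1.3 in the cKO libraries. The genotypes did not overlap, and the cKO libraries lay close together while the Ctrl libraries were spread. For *Fgf7* the log2 fold change of -0.76 had a standard error of 0.149 and an adjusted p = 0.0105 in limma with Benjamini-Hochberg adjustment. Without Ctrl replicate 1, the library with the highest value, it was -0.56 with an adjusted p of 0.0773 in limma, and without cKO replicate 1 it was -0.72 with an adjusted p of 0.0608.

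*Fgf10* encodes a close relative of Fgf7 that is known to promote the formation of preadipocytes in developing fat, and it was the most abundant ligand of the 6. Its FPKM was 11.3 and 11.42 in the Ctrl libraries and 7.95 and 9.97 in the cKO libraries. Both cKO libraries were lower, and the distance between them was larger than that between the Ctrl libraries. The log2 fold change of -0.32 (95% interval -0.56 to -0.08) had an adjusted p = 0.0589 in limma with Benjamini-Hochberg adjustment and was not called. When genes with a mean FPKM under 5 were left out of the fit, its adjusted p was 0.0312 in limma, and without cKO replicate 2 it was 0.0189.

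*Fgf21*, whose promoter is printed above and which lies at chr7:45613890-45615490, was the ligand with higher values in cKO. Its FPKM was 0.89 and 0.85 in the Ctrl libraries and 1.2 and 1.56 in the cKO libraries. The genotypes did not overlap and the Ctrl libraries were almost equal, but the level was low throughout, and the gene reached the mean FPKM of 1 only through its cKO values. The ratio of the mean FPKM of cKO to that of Ctrl was 1.59, and the log2 fold change was 0.34 (95% interval 0.04 to 0.65, limma with Benjamini-Hochberg adjustment, adjusted p = 0.0976). The values stand for about 15.2 and 14.3 reads in Ctrl and about 19.3 and 25.3 reads in cKO, each with a counting error between 3.8 and 5.0 reads. With quantile normalization the adjusted p was 0.0437 in limma, and without a trend of the variance it was 0.0468. With a pseudocount of 0.1 in place of 1 the log2 fold change was 0.60 and was not called.

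*Fgf1*, acidic FGF, which fat cells are known to produce under control of the receptor Pparγ, had FPKM values of 6.78 and 7.32 in the Ctrl libraries and of 7.17 and 6.46 in the cKO libraries. The genotypes overlapped, and the log2 fold change was -0.04 with a 95% interval from -0.24 to 0.15. *Fgf9* was listed at 0.26 and 0.12 in Ctrl and at 0.21 and 0.14 in cKO, which stands for between 3.4 and 7.6 reads a library. At this depth no difference in *Fgf9* could be seen.

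**Figure D2:**
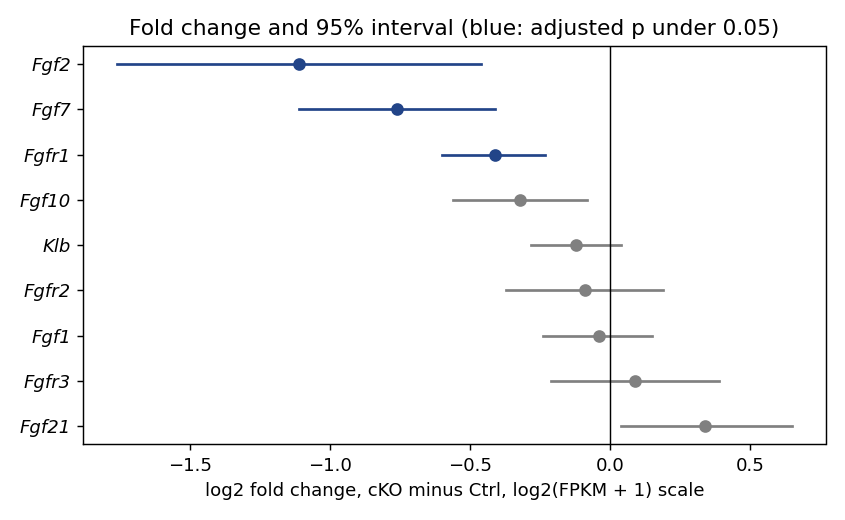
Log2 fold change (cKO minus Ctrl, of log2(FPKM + 1)) of the 9 members tested, with the 95% interval from limma as a line. Blue marks the 3 genes with an adjusted p under 0.05, all of them lower in cKO, and grey the others.

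*Fgfr1* had the highest FPKM of the 10 genes in every library. This receptor is the one that adipocytes use together with β-Klotho for Fgf21, and it is also made by fibroblasts and preadipocytes. Its FPKM was 41.35 and 36.38 in the Ctrl libraries and 29.87 and 27.88 in the cKO libraries. All cKO values were below all Ctrl values, by more than the distance within either genotype. Its log2 fold change was -0.41, with a standard error of 0.0769 and an adjusted p = 0.00855 in limma with Benjamini-Hochberg adjustment. The call was lost without Ctrl replicate 1 (log2 fold change -0.32, adjusted p = 0.0841 in limma) and without cKO replicate 2 (log2 fold change -0.37, adjusted p = 0.0565 in limma). *Fgfr1* lies at chr8:25518759-25575718.

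*Klb* had FPKM values of 18.46 and 19.96 in the Ctrl libraries and of 17.16 and 17.95 in the cKO libraries. Both cKO values were lower than both Ctrl values by a small margin. The log2 fold change was -0.12 (95% interval -0.28 to 0.04, limma with Benjamini-Hochberg adjustment, adjusted p = 0.225). The FPKM of *Klb* relative to that of *Fgfr1* in the same library, which does not depend on how libraries are scaled to each other, was 0.446 and 0.549 in Ctrl and 0.574 and 0.644 in cKO. The ratio was higher in both cKO libraries, and the exact two-sided permutation test over the libraries gave p = 0.333, the smallest p that 2 libraries against 2 allow.

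*Fgfr2*, the receptor of Fgf7 and Fgf10 in its IIIb form, was far lower than *Fgfr1*, with FPKM values of 2.15 and 2.77 in Ctrl and of 2.29 and 2.18 in cKO. The genotypes overlapped (log2 fold change -0.09, 95% interval -0.37 to 0.19). The table lists 2 transcripts for it under a single value, so the IIIb and IIIc forms are not separated. *Fgfr3*, best known as a brake on bone growth, had FPKM values of 1.05 and 0.88 in Ctrl and of 1.01 and 1.18 in cKO. It too overlapped between the genotypes, with a log2 fold change of 0.09 and a 95% interval from -0.21 to 0.39. With a mean of 0.965 in Ctrl and 1.09 in cKO, *Fgfr3* reached the mean FPKM of 1 only through its cKO values.

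FPKM is scaled by transcript length, so levels of different genes can be set side by side. In Ctrl the order of the mean FPKM was *Fgfr1* (38.9), *Klb* (19.2), *Fgf10* (11.4), *Fgf1* (7.05), *Fgf2* (3.76), *Fgf7* (2.83), *Fgfr2* (2.46), *Fgfr3* (0.965), *Fgf21* (0.87) and *Fgf9* (0.19). The libraries of *Fgf2* and *Fgf7*, of *Fgf7* and *Fgfr2*, and of *Fgfr3* and *Fgf21* overlapped, so these neighbours cannot be ordered. In cKO the first 4 genes kept their order and *Fgfr2* (2.24) came next. The means of *Fgf21* (1.38), *Fgf2* (1.3), *Fgf7* (1.24) and *Fgfr3* (1.09) followed, with libraries that overlapped from each gene to the next, and *Fgf9* (0.175) was last.

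The make-up of the ligand and receptor messages was compared as shares within each library. *Fgfr1* made up 92.7% and 90.6% of the summed FPKM of the receptors *Fgfr1* to *Fgfr4* in Ctrl, and 89.9% and 89.1% in cKO. The summed FPKM of the receptors was 44.6 and 40.2 in Ctrl and 33.2 and 31.3 in cKO, so that most of the difference was that of *Fgfr1*. The summed FPKM of the 6 ligands was 27.0 and 25.2 in Ctrl and 19.7 and 20.0 in cKO. *Fgf10* held the largest share of it in every library, between 40.3% and 49.8%, and its shares overlapped between the genotypes. The share of *Fgf2* was 16.1% and 12.6% in Ctrl and 10.1% and 3.0% in cKO. The share of *Fgf7* was 12.5% and 9.13% in Ctrl and 5.99% and 6.49% in cKO. The share of *Fgf1* was 25.2% and 29.1% in Ctrl and 36.4% and 32.3% in cKO, while its FPKM overlapped between the genotypes. That of *Fgf21* was 3.3% and 3.37% in Ctrl and 6.09% and 7.79% in cKO. These 4 shares did not overlap between the genotypes, and each had an exact two-sided permutation p = 0.333, the smallest possible here.

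**Figure D3:**
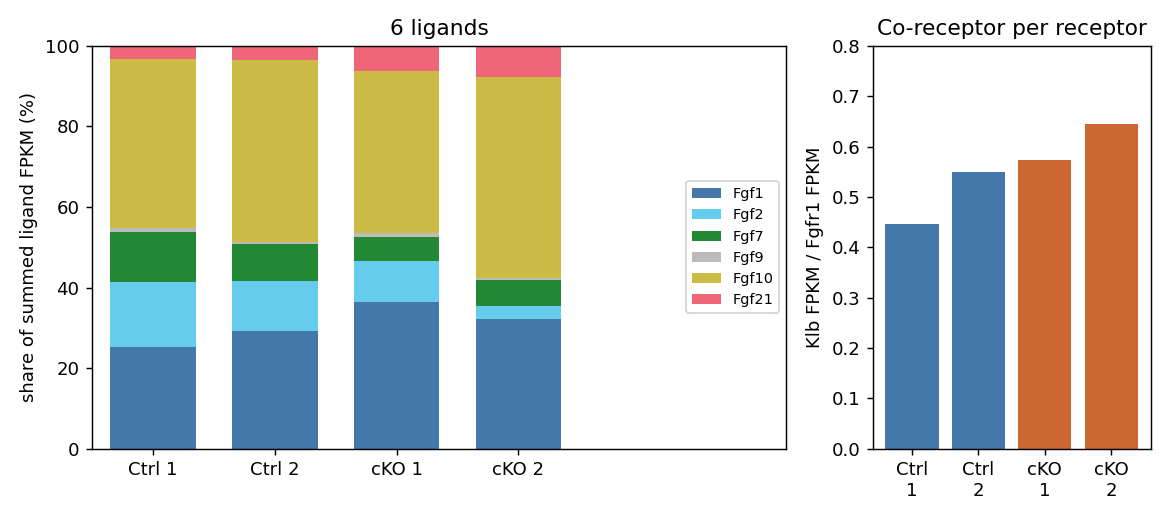
Left, the share of each of the 6 ligands in their summed FPKM in each library, stacked to the full height. Right, the FPKM of *Klb* divided by that of *Fgfr1* in each library, with Ctrl in blue and cKO in orange, from 0.446 in Ctrl replicate 1 to 0.644 in cKO replicate 2. In cKO the bands of *Fgf2* and *Fgf7* are narrower and those of *Fgf1* and *Fgf21* wider.

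Markers of the cells of the depot differed between the genotypes in both directions. The counts below stand beside 13.8% of all genes tested called lower and 12.0% called higher in cKO. Of 10 fibroblast and adipocyte progenitor genes 7 were called lower and 0 higher. Their median log2 fold change was -0.69, and their summed FPKM was 1800 and 1560 in Ctrl and of 1050 and 1060 in cKO. Of the 8 white adipocyte genes 4 were called lower and 0 higher, with a median of -0.41, and of 6 endothelial genes 3 were lower and 0 higher, with a median of -0.17. All 8 brown and beige adipocyte genes were called higher, with a median of 1.45. Of the immune cell genes tested, 5 of 5 neutrophil genes (median 0.92), 5 of 5 B cell genes (median 0.64) and 4 of 5 T cell genes (median 0.55) were called higher and 0 lower. The 6 macrophage genes and the 6 smooth muscle and pericyte genes were mixed, each list with 1 gene higher and 3 lower. The 6 luminal epithelium genes summed to an FPKM between 1.49 and 2.15 in the 4 libraries, and 6 listed genes of keratinocytes and skin to between 2.64 and 4.63. Ctrl replicate 1 had the highest summed FPKM of the muscle, nerve, fibroblast, white adipocyte, endothelial, macrophage, and keratinocyte and skin lists. The brown and beige adipocyte, neutrophil, B cell, T cell and luminal epithelium lists were highest in other libraries. Ctrl replicate 1 also had the highest FPKM of *Fgf2*, *Fgf7* and *Fgfr1*. *Th* of the nerve list and *Krt14* of the keratinocyte and skin list were not among the genes listed. None of the 19030 genes listed was at 0 in all 4 libraries, so no listed marker could be. The part of these cells in the fall of *Fgf2*, *Fgf7* and *Fgfr1* was not tested.

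Of 92 other genes of FGF signaling in 7 lists, 89 were listed in the table and 68 could be tested. Of these, 10 were called higher and 18 lower, together 41.2% against 25.8% of all genes tested. The lists were chosen with earlier results of these data known, and the difference between these shares was not tested. The median over the 68 was -0.13. Fewer of the 68 were called when any library was left out, and the same was the case among all genes tested. Of the 16 remaining ligand genes, 13 were listed and 3 reached the level needed for the test, namely *Fgf11*, *Fgf13* and *Fgf18*, of which 0 were called (adjusted p = 0.548, adjusted p = 0.181 and adjusted p = 0.355 in limma). *Fgf11* and *Fgf13* encode proteins that stay inside the cell, and *Fgf18* encodes a secreted ligand. *Fgf11* had the highest FPKM of the 3, from 5.22 to 5.64 in the 4 libraries.

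Of 7 other receptor and co-receptor genes 4 could be tested, and 2 were called lower and 0 higher. This was 50.0%, against 25.8% of all genes tested. *Fgfrl1*, an FGF receptor without a kinase domain, was more abundant than *Fgfr1*, with FPKM values of 61.93 and 57.68 in Ctrl and of 43.53 and 46.01 in cKO. Its libraries did not overlap, and its log2 fold change of -0.41 had an adjusted p = 0.0042 in limma with Benjamini-Hochberg adjustment. *Flrt2*, a membrane protein of a family that binds FGF receptors, fell from 2.98 and 3.02 to 1.71 and 1.53 FPKM (log2 fold change -0.61). The call of *Flrt2* was lost without Ctrl replicate 1 (adjusted p = 0.0645 in limma) and without Ctrl replicate 2 (adjusted p = 0.0517), and that of *Fgfrl1* without Ctrl replicate 1 (adjusted p = 0.0622). *Kl*, the gene of α-Klotho, was listed at an FPKM between 0.01 and 0.04, and *Fgfr4* at between 0.04 and 0.14, so neither could be tested.

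Heparan sulfate proteoglycans hold FGFs at the cell surface and in the matrix and take part in receptor binding. Of 17 such genes tested, together with the enzymes that build or trim the chains and an FGF-binding protein, 7 were called lower and 2 higher. This was 52.9%, against 25.8% of all genes tested. *Gpc3*, a membrane-anchored glypican, had FPKM values of 11.84 and 9.4 in Ctrl and of 2.64 and 2.54 in cKO. This was the largest fall of the list (log2 fold change -1.69 with a standard error of 0.111, adjusted p = 0.000258 in limma). *Sdc2*, a syndecan, fell from 19.42 and 17.03 to 10.22 and 11.24 FPKM (log2 fold change -0.71). A further syndecan, *Sdc4*, moved the other way, from 15.56 and 14.36 to 24.46 and 22.06 FPKM (log2 fold change 0.60). *Sdc3* rose from 29.14 and 26.46 to 34.0 and 33.0 FPKM (log2 fold change 0.26), a call that was lost in limma without a filter, without a trend of the variance and without any of the 4 libraries.

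Downstream of the receptors, 21 adaptor and kinase genes were tested, of which 3 were called lower and 1 higher. This share of 19.0% was near the 25.8% of all genes tested. *Gab1*, a docking protein, fell from 5.99 and 5.86 to 3.51 and 3.99 FPKM (log2 fold change -0.55). The Erk kinase gene *Mapk3*, named after its values were seen, was also lower, with a log2 fold change of -0.20. *Rps6ka1*, the gene of a kinase that Erk activates, rose from 12.43 and 11.44 to 15.71 and 16.95 FPKM (log2 fold change 0.42). The calls of *Gab1* and *Rps6ka1* were lost without Ctrl replicate 1 (adjusted p = 0.0796 and adjusted p = 0.0544 in limma) and without Ctrl replicate 2 (adjusted p = 0.056 and adjusted p = 0.0681). *Frs2*, the docking protein next to the receptor, had an FPKM between 5.5 and 5.97 in the 4 libraries and was not called.

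Genes that FGF signaling is known to induce did not share a direction. Among 9 feedback inhibitor genes tested, 2 were called higher and 1 lower, together 33.3% against 25.8% of all genes tested. *Dusp5* and *Dusp6*, the genes of phosphatases that switch off Erk, rose. *Dusp5* had FPKM values of 1.79 and 1.53 in Ctrl and of 3.13 and 3.5 in cKO, and *Dusp6* of 15.56 and 14.49 in Ctrl and of 22.51 and 21.01 in cKO (log2 fold changes 0.70 and 0.51, with adjusted p = 0.00426 and adjusted p = 0.00263 in limma). *Spry1*, the gene of a Sprouty inhibitor, fell from 12.09 and 10.66 to 7.14 and 7.91 FPKM (log2 fold change -0.54), and was not called without Ctrl replicate 1 (adjusted p = 0.0808 in limma). Of 7 early response and ETS target genes tested, 2 were called higher and 3 lower, together 71.4%. *Fos*, an immediate early transcription factor gene that many stimuli induce, had FPKM values of 19.33 and 14.14 in Ctrl and of 2.94 and 4.19 in cKO, a log2 fold change of -1.96 (adjusted p = 0.000601 in limma). *Egr1*, of the same kind, fell from 18.74 and 16.27 to 5.78 and 7.33 FPKM (log2 fold change -1.30), and *Phlda1*, named after its values were seen, had a log2 fold change of -1.11. *Ccnd1*, the gene of cyclin D1, and *Ier3* rose by log2 fold changes of 0.24 and 0.28, and these small calls were lost in limma without a filter, without a trend of the variance and without any of the 4 libraries.

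**Figure D4:**
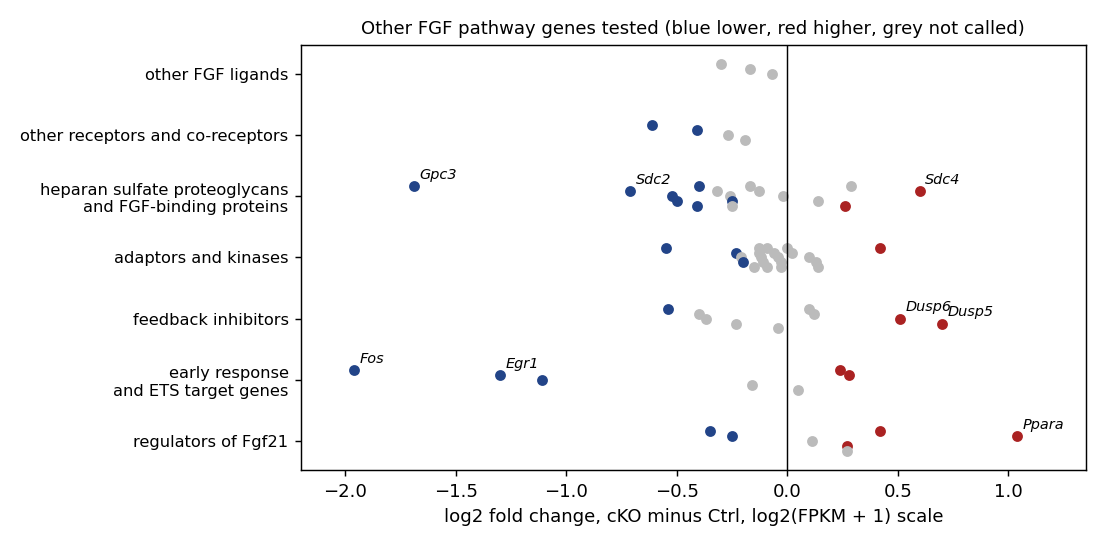
Log2 fold change (cKO minus Ctrl, of log2(FPKM + 1)) of the 68 other FGF pathway genes tested, 1 point a gene, in 7 lists. Blue points were called lower, red higher and grey not called, and points are offset vertically only to separate them. The lowest point is *Fos* (-1.96) and the highest is *Ppara* (1.04).

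All 7 regulators known to act on *Fgf21* in liver or fat could be tested, and 3 were called higher and 2 lower. This was 71.4%, against 25.8% of all genes tested. *Ppara*, the gene of the fatty acid receptor that induces *Fgf21* in fasting liver, had FPKM values of 7.04 and 9.6 in Ctrl and of 19.35 and 16.81 in cKO (log2 fold change 1.04 with a standard error of 0.133, adjusted p = 0.00206 in limma). *Nr1d1*, the gene of the clock repressor Rev-erbα, rose from 8.74 and 9.78 to 12.52 and 12.88 FPKM (log2 fold change 0.42). *Atf4*, the stress-response factor whose composite motif is marked in the *Fgf21* promoter above, was also higher, with a log2 fold change of 0.27, and was named after its values were seen. *Rxra*, the partner of the Ppar receptors, fell from 42.53 and 39.77 to 31.43 and 32.67 FPKM (log2 fold change -0.35). *Pparg*, the master factor of fat cells, fell from 140.65 and 143.44 to 116.28 and 122.57 FPKM (log2 fold change -0.25), a call that was lost in limma without a filter, without a trend of the variance and without any library but cKO replicate 2. The calls of *Nr1d1* and *Rxra* were lost without Ctrl replicate 1 (adjusted p = 0.091 and adjusted p = 0.0804 in limma).

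The calls of *Fgf2*, *Fgf7* and *Fgfr1* depended on the libraries and genes that entered the fit, and their direction did not. Without a filter on low values, where 19030 genes share the fit, 0 of the 10 members were called by limma at an adjusted p under 0.05 and 4 at an unadjusted p under 0.05, where 9.26% of all genes were called and 29.3% had an unadjusted p under 0.05. The fold changes of these 3 genes stayed the same. Leaving out Ctrl replicate 1 also left 0 calls (2 of 9 at an unadjusted p under 0.05), where 6.22% of all genes were called and 25.6% had an unadjusted p under 0.05. Leaving out any of the other libraries also lost part of the 3 calls. Without cKO replicate 2, *Fgf2* and *Fgfr1* were not called, while *Fgf10*, not called with all libraries, was.

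**Figure D5:**
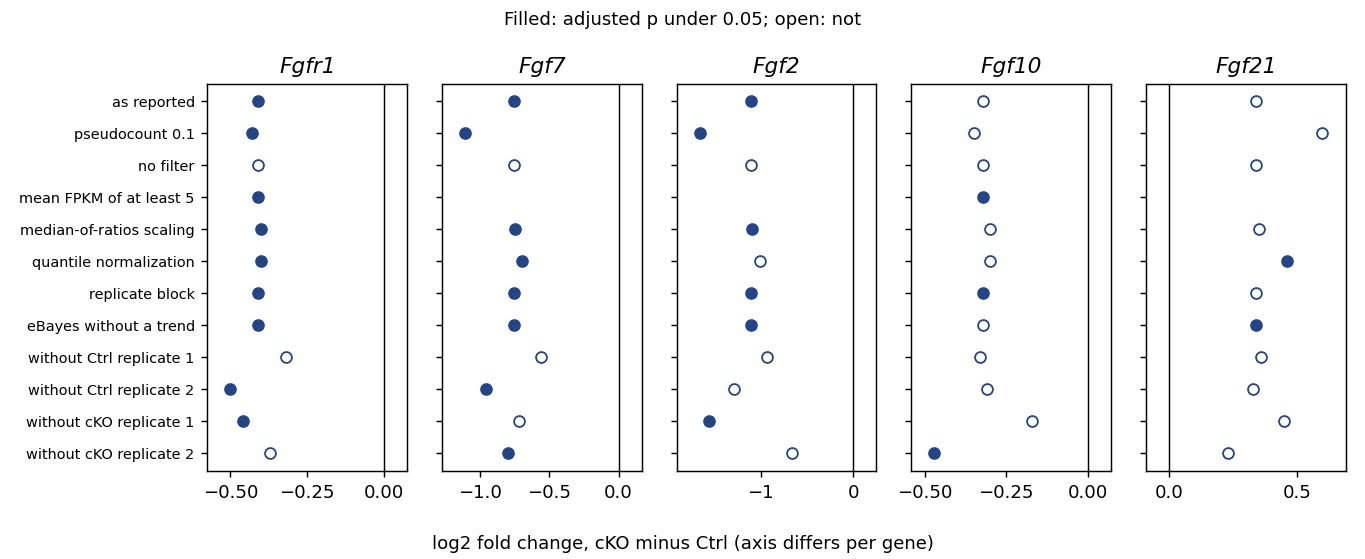
Log2 fold change of cKO against Ctrl for *Fgfr1*, *Fgf7*, *Fgf2*, *Fgf10* and *Fgf21* as reported and under each alternative, on an axis of its own for each gene. Filled points have an adjusted p under 0.05 in limma and open points do not. All points of the first 4 genes lie below 0 and all points of *Fgf21* above 0, and none of the 5 genes is called under every alternative.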

How the data were processed

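RNA from ingWAT of cold-exposed Ctrl and cKO mice was sequenced by the authors as single-end reads of polyadenylated RNA on a BGISEQ-500 instrument, and FPKM per gene and library was deposited. The submitters' processing notes name HISAT2 2.0.4, RSEM 1.2.12 and the build mm10, without their roles, and no scaling between libraries is stated. Per the labels the 4 libraries fall into 2 Ctrl and 2 cKO. Whether they come from separate mice is not stated, so p-values measure the spread between these libraries, which may be technical.

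From the deposited FPKM, genes with a mean of at least 1 were tested with limma 3.58.1 (eBayes with a trend, R 4.3.3) on log2(FPKM + 1), with Benjamini-Hochberg adjustment. Shares and ratios used exact permutation tests (scipy 1.17.1). The limma fit was tested on simulated data, as was the depth estimate that follows. Both simulations met the assumptions of the method, so they cannot show how far these libraries depart from them. Depth was estimated from FPKM steps of 319 short RNA genes, where 84.4% to 89.6% of the values were whole reads within 0.1 at a transcript length reduced by 37 bases. Reads per gene follow from this depth and the GENCODE M21 transcript lengths, and counting errors are their square roots. Beyond these short RNAs whole reads could not be recovered, and no count test was made. Of the gene IDs, 18977 were found in RefSeq for GRCm38.p6, the assembly of mm10, from which coordinates were taken. In 24 genes the symbol had become a date, and the gene ID was used.

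The members and all lists were chosen with earlier results of these data known. From each pathway list, up to 2 called genes that rose most and up to 2 that fell most are named where their libraries do not overlap, and others are marked. A gene that the rule names is not reported here. The fit was repeated with 0.1 as the pseudocount, on the whole table, on genes whose FPKM averaged 5 or more, after scaling by median ratios, after quantile normalization, with a block for the replicate number, with a variance that has no trend, and without each library in turn. Shares were also taken after adding 0.1 FPKM.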

Additional observations from a re-analysis of the deposited data

How the results depend on the processing

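The count of genes called, 3269, was 1762 without a filter and between 787 and 2340 with a library left out. The 3 calls among the members became 0 without a filter and 0 to 2 with a library left out, and the 28 calls among the other pathway genes became 10 to 25. Without a filter the values stayed at -1.11 for *Fgf2* (adjusted p = 0.144 in limma), -0.76 for *Fgf7* (adjusted p = 0.0722) and -0.41 for *Fgfr1* (adjusted p = 0.0602), none of them called, and quantile normalization gave -1.01 for *Fgf2* (adjusted p = 0.0502). *Fgf10*, at -0.32, was called with a mean FPKM of at least 5 (adjusted p = 0.0312), and *Fgf21* was called at 0.46 with quantile normalization and at 0.34 without a trend. The cause of these changes was not tested. As *Fgf21* reached the mean FPKM of 1 only through its cKO values, its calls are no support for a difference. With a library left out, where a lone library is assumed to vary like the others, the log2 fold change lay between -1.56 and -0.66 for *Fgf2*, -0.96 and -0.56 for *Fgf7*, -0.50 and -0.32 for *Fgfr1*, -0.47 and -0.17 for *Fgf10*, and 0.23 and 0.45 for *Fgf21*. It changed sign for *Fgf1*, from -0.11 to 0.02, and *Fgfr2*, from -0.22 to 0.04.

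The replicate numbers were not shown to pair the libraries, since the deviations of same-numbered libraries had a correlation of 0.0148. With the replicate number as a block *Fgf10* was called at -0.32 (adjusted p = 0.0318), and 4 members and 3383 genes were called.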
